A study of Mus musculus with 6 samples.

Results

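The enzymes that make and use arginine, creatine and the polyamines form a linked network, and 10 of its genes were followed here in kidneys of diabetic mice with and without the genotype named Cdo1KKO. The genes were chosen by symbol: Ass1, Asl, Arg2, Gatm, Odc1, Amd1, Srm, Sat1, Smox and Azin1. Each symbol matched 1 of the 55401 genes in the deposited tables, and all 10 passed the filter on low counts that left 17194 genes for testing. Kidney RNA came from 3 libraries of each of 2 groups, Cdo1KKO/Sed and WT/Sed, all from mice given streptozotocin, a toxin of the insulin-producing beta cells, to model type 1 diabetes. The titles name the groups Cdo1KKO/Sed and WT/Sed, the genotype labels read KO and WT, the title of the series places Cdo1 in the renal tubule, and Sed is not spelled out. The study asked which pathways depend on Cdo1 of the tubule in diabetic kidney disease. The labels used here do not state the deleted exons, the Cre driver, the strain, the age or the sex.

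Argininosuccinate synthase (Ass1) and argininosuccinate lyase (Asl) turn citrulline, which reaches the kidney from the gut, into arginine, and the proximal tubule is the main site of this step for the body. Arginine is then split by arginase into urea and ornithine, or used by glycine amidinotransferase (Gatm) for the first step of creatine synthesis. Ornithine decarboxylase (Odc1) opens polyamine synthesis, which needs decarboxylated S-adenosylmethionine from Amd1 and the aminopropyl transferases Srm and Sms. Antizymes send ornithine decarboxylase to the proteasome, the antizyme inhibitor Azin1 prevents this, and the acetyltransferase Sat1 and the oxidase Smox break polyamines down, Smox with release of hydrogen peroxide.

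Levels are given as CPM, which is per library after TMM scaling, and as TPM, which is per gene length, wherever 1 gene is set against another. Errors of group means are SDs over 3 libraries. Fold changes are log2 values of Cdo1KKO/Sed over WT/Sed and carry an approximate SE. A gene rose or fell where its adjusted p, from edgeR's quasi-likelihood test with Benjamini-Hochberg adjustment over all genes tested, was under 0.05. The labels call the libraries biological replicates and do not say more, so the p-values measure the spread between these samples. The libraries held 28145261 to 43872779 counts. Cdo1, the targeted gene, stood at 110.1 ± 7.94 CPM in Cdo1KKO/Sed and 184 ± 5.79 CPM in WT/Sed, so the transcript was lower and still present. Its log2 fold change, -0.74 ± 0.06, was near the mean difference of 20 proximal tubule markers, -0.66 in log2 CPM. Whether Cdo1 fell beyond these markers was not tested. Markers of the proximal tubule, which carries Ass1, Asl and Gatm, were lower in Cdo1KKO/Sed: 9 of 10 markers of its S1 segment and 8 of 10 of S2 and S3 fell. In kidney tissue, fewer cells of a type and less RNA per cell cannot be told apart. Y-linked transcripts were present in all 6 libraries, at 217.8 to 245 CPM summed over 4 genes in Cdo1KKO/Sed and 247.7 to 289.6 CPM in WT/Sed, and Xist did not exceed 0.349 CPM in any of them.

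Of the 10 genes, 5 rose in Cdo1KKO/Sed (Arg2, Srm, Sat1, Smox and Azin1), 3 fell (Ass1, Asl and Gatm) and 2 did not pass the test (Odc1 and Amd1). Over all genes tested, 37.4% changed, 18.9% up and 18.5% down, so changes were common in these libraries. The 8 genes that changed were also those whose libraries did not overlap between groups, a separation that 50.3% of all genes tested showed, 25.7% with higher and 24.5% with lower values in Cdo1KKO/Sed. The median log2 fold change was 0.16 over the 10 genes and 0.01 over all genes tested.

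**Figure D1:**
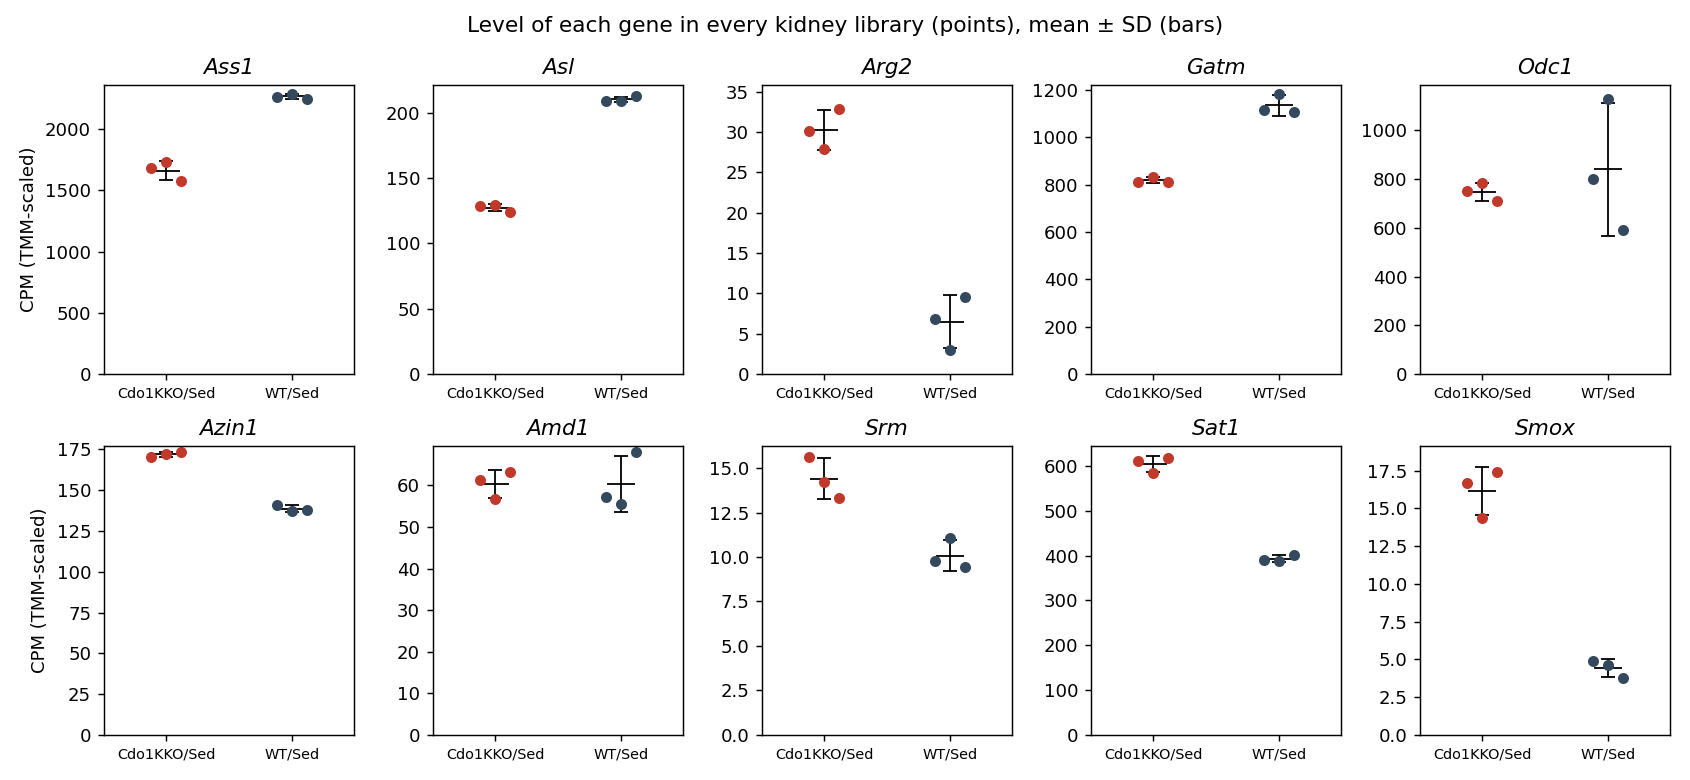
CPM (TMM-scaled) of each gene on the vertical axis, from 0, in the 3 Cdo1KKO/Sed libraries (left in each panel) and the 3 WT/Sed libraries (right), with the mean and SD as bars. Ass1, Asl and Gatm lie lower in Cdo1KKO/Sed and Arg2, Azin1, Srm, Sat1 and Smox higher, without overlap, while Odc1 and Amd1 overlap and Odc1 spreads widely in WT/Sed.

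Both enzymes of arginine synthesis fell. Ass1 (chromosome 2, 31470207 to 31520672 on the plus strand, GRCm38) had 1679, 1734 and 1574 CPM in the Cdo1KKO/Sed libraries, against 2266, 2289.8 and 2247 CPM in the WT/Sed libraries. Every Cdo1KKO/Sed library was below every WT/Sed library, and the Cdo1KKO/Sed mean was 73.3% of the WT/Sed mean (log2 fold change -0.45 ± 0.05, adjusted p = 3.39e-05). Asl (chromosome 5, 130011258 to 130029247, minus strand) had 129, 129 and 124 CPM in Cdo1KKO/Sed, against 209, 209 and 212 CPM in WT/Sed. Its libraries varied little within a group, by 2.22% in Cdo1KKO/Sed and 0.940% in WT/Sed as coefficients of variation. Its fall was deeper than that of Ass1, to 60.6% of the WT/Sed mean (-0.72 ± 0.05, adjusted p = 9.66e-07). The enzymes therefore did not keep their proportion: the ratio of Ass1 to Asl in TPM was 26.1 ± 0.741 in Cdo1KKO/Sed and 21.6 ± 0.398 in WT/Sed, without overlap.

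The consumers of arginine moved in opposite directions. Arg2, the mitochondrial arginase and the isoform known for the kidney, had 30.1, 27.9 and 32.9 CPM in Cdo1KKO/Sed, against 6.86, 3.04 and 9.56 CPM in WT/Sed. All Cdo1KKO/Sed libraries were above all WT/Sed libraries, with the largest fold change among the 10 genes (2.19 ± 0.38, adjusted p = 0.00927). The wide error comes with uneven WT/Sed libraries, whose coefficient of variation was 50.5% against 8.25% in Cdo1KKO/Sed. With each library left out in turn, the fold change of Arg2 ran from 1.88 to 2.55 and the adjusted p from 1.06e-08 to 0.0372, the highest without WT/Sed replicate 1. Arg2 lies on chromosome 12 (79130777 to 79156301, plus strand) and its end overlaps the end of Vti1b on the other strand. Without stated strandedness, reads of the overlap cannot be assigned, and Vti1b itself had 55.7 CPM in Cdo1KKO/Sed and 60.2 CPM in WT/Sed (log2 fold change -0.11 ± 0.06, adjusted p = 0.205). Gm48780, which also overlaps Arg2, averaged 0.341 CPM in Cdo1KKO/Sed and 0.350 CPM in WT/Sed. Gatm (chromosome 2, 122594467 to 122611303, minus strand) had 812, 834 and 813 CPM in Cdo1KKO/Sed, against 1114, 1183 and 1105 CPM in WT/Sed. It fell by nearly the same proportion as Ass1, to 72.3% (-0.47 ± 0.05, adjusted p = 2.13e-05), without overlap.

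The promoter letters of a gene of arginine synthesis, of creatine synthesis, of polyamine synthesis and of polyamine breakdown are shown because these branches moved differently. RefSeq (GRCm38.p6) gave promoter windows for 6 of the 10 genes (Ass1, Gatm, Odc1, Amd1, Sat1 and Smox). The windows were searched on both strands for CACGTG, the E-box read by MYC and related factors, for TGATGNAA, a core of the element read by ATF4, for CCAAT and for GGGCGG, the GC box. Capitals mark every match within the stretch shown, and none of the matches overlap each other. The Gatm, Odc1 and Sat1 stretches end where the first annotated transcript begins, and the Ass1 stretch lies between the GENCODE and the RefSeq start.
Ass1, chr2:31470222-31470251, plus strand: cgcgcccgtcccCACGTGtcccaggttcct
Gatm, chr2:122611304-122611527, minus strand: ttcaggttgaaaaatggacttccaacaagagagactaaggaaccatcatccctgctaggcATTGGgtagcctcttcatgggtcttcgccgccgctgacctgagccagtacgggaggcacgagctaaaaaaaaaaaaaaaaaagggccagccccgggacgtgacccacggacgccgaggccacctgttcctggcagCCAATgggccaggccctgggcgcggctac
Odc1, chr12:17544623-17544793, plus strand: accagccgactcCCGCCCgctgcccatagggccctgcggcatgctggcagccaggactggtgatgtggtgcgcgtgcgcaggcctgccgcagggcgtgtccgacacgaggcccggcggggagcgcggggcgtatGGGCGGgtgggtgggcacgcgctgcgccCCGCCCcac
Sat1, chrX:155216450-155216699, minus strand: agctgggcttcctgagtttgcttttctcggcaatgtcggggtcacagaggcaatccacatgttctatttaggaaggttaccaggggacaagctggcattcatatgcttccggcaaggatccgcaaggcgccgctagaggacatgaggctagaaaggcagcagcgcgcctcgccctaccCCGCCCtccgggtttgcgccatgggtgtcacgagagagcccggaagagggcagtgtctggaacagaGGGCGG

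Among the 6 windows, CACGTG was found in that of Ass1, where 7.15% of all 32851 promoter windows hold it, and CCAAT at 2 places in that of Gatm (37.4% of all windows hold it). GGGCGG was found in 5 windows, those of Ass1, Odc1, Amd1, Sat1 and Smox (35.7% of all windows hold it), with 6 matches in Smox, 4 in Odc1 and 2 in Sat1. The letters of TGATGNAA, held by 3.97% of all windows, were not in these 6. GGGCGG stood in windows of genes that rose, of a gene that fell and of genes that did not pass the test.

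Transcripts of polyamine synthesis did not move as a block. Odc1 (chromosome 12, 17544794 to 17551505, plus strand) had 749.9, 782 and 708 CPM in Cdo1KKO/Sed, against 799, 1129 and 589.9 CPM in WT/Sed. The Cdo1KKO/Sed libraries lay inside the range of the WT/Sed libraries, whose coefficient of variation was 32.4% against 4.98%. The difference did not pass the test (-0.17 ± 0.25, adjusted p = 0.658). Its interval, taken from a normal distribution, ran from -0.66 to 0.33. With 3 libraries per group this is narrower than a 95% interval of the test. Changes of that size, and somewhat larger ones, in either direction could therefore not be resolved. WT/Sed replicate 2 sets the sign: without it the log2 fold change was 0.11 (adjusted p = 0.637), and without WT/Sed replicate 3 it was -0.37. Gm22748, which overlaps Odc1, had 0.521, 1.56 and 1.05 CPM in Cdo1KKO/Sed, against 2.11, 3.94 and 0.851 CPM in WT/Sed. Its WT/Sed libraries thus had the same order as those of Odc1. Per gene length, Gm22748 averaged 20.7 TPM in Cdo1KKO/Sed and 38.1 TPM in WT/Sed, against 593 and 558 TPM for Odc1. Amd1 (chromosome 10, 40287458 to 40302186, minus strand) had 61.2, 56.7 and 63.3 CPM in Cdo1KKO/Sed, against 57.3, 55.5 and 68.1 CPM in WT/Sed. The groups overlapped and their means were 60.4 and 60.3 CPM in Cdo1KKO/Sed and WT/Sed. The interval of the log2 fold change, of the same kind as for Odc1, ran from -0.16 to 0.16. Few counts were assigned to the near-identical copies of Amd1: Amd2 had 42 counts over the 6 libraries against 13668 for Amd1, and no Amd pseudogene had more than 13. The aligner and the counter were not given, so how reads shared by these copies were assigned is not known.

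The aminopropyl transferase and the antizyme inhibitor rose modestly. Srm, which makes spermidine from putrescine (chromosome 4, 148591503 to 148594993, plus strand), had 15.6, 14.2 and 13.3 CPM in Cdo1KKO/Sed, against 9.76, 11.1 and 9.41 CPM in WT/Sed. All 3 Cdo1KKO/Sed libraries were higher (0.52 ± 0.10, adjusted p = 0.0027). Azin1 (chromosome 15, 38487427 to 38519266, minus strand) had 170.5, 172 and 174 CPM in Cdo1KKO/Sed, against 141, 137 and 138 CPM in WT/Sed. It was among the steadiest of the 10 genes within a group, at 0.926% and 1.41% as coefficients of variation in Cdo1KKO/Sed and WT/Sed, and its rise was small (0.31 ± 0.05, adjusted p = 3.70e-04). Azin1 resembles ornithine decarboxylase in sequence and lacks its activity. The antisense gene Gm49077 and the miRNA gene Mir6951, which overlap Azin1, averaged under 0.05 CPM in both groups.

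Sat1 and Smox, the enzymes of polyamine breakdown among the genes followed, both rose. Other genes of breakdown did not all rise. The acetyltransferase gene Sat2 fell (-0.70 ± 0.08), and the polyamine oxidase Paox did not pass the test (adjusted p = 0.0777). The amine oxidase gene Aoc1, which the deposited table assigns to arginine and proline metabolism, also fell (-0.50 ± 0.16, adjusted p = 0.0326). Sat1 (X chromosome, 155213132 to 155216449, minus strand) had 610.2, 585 and 618 CPM in Cdo1KKO/Sed, against 391, 388 and 401 CPM in WT/Sed. The groups did not overlap and the libraries of each lay close together (0.62 ± 0.05, adjusted p = 2.97e-06). Smox, which oxidises spermine to spermidine (chromosome 2, 131491496 to 131525922, plus strand), had 16.7, 14.4 and 17.4 CPM in Cdo1KKO/Sed, against 4.91, 4.61 and 3.79 CPM in WT/Sed. Its level was 364% of that in WT/Sed, without overlap (1.87 ± 0.13, adjusted p = 1.35e-06), from a total of 1916 counts in Cdo1KKO/Sed and 470 counts in WT/Sed. Among the 17194 genes tested, 2.33% had a larger fold change in either direction than Arg2 and 3.17% a larger one than Smox, whereas 33.6% had a larger one than Ass1.

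**Figure D2:**
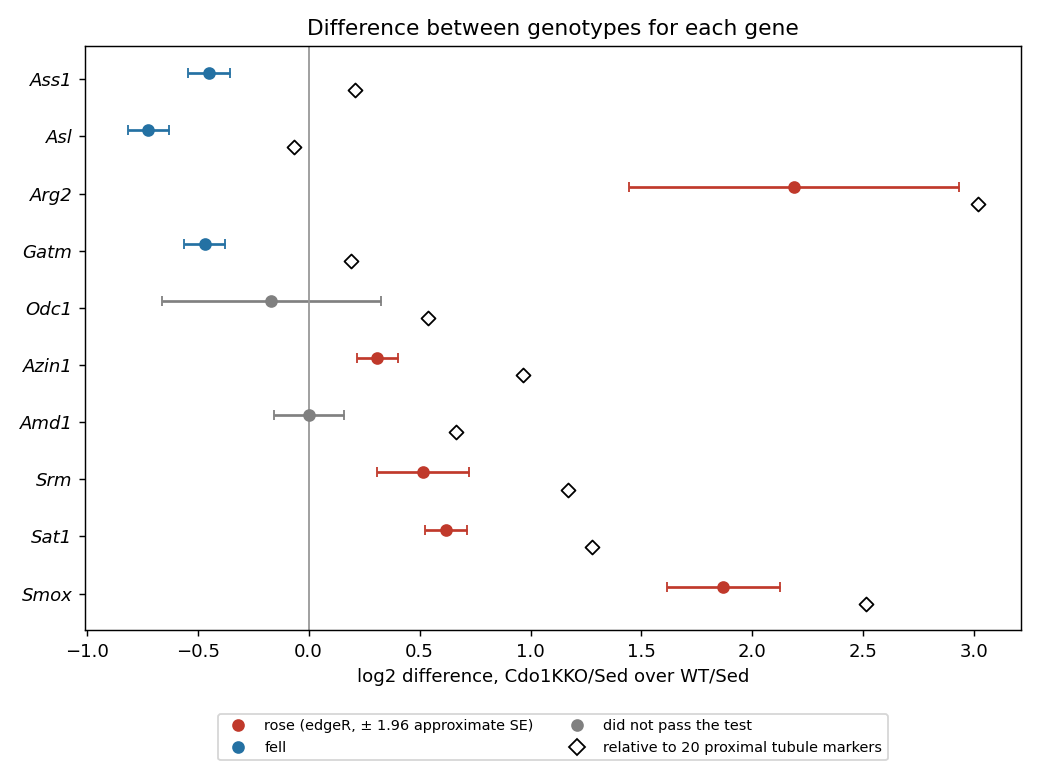
Log2 difference of Cdo1KKO/Sed over WT/Sed for each gene on the horizontal axis. Circles give the edgeR fold change, coloured by whether the gene rose, fell or did not pass the test. Their bars are intervals from a normal distribution, narrower than 95% intervals of the test. Open diamonds give the difference relative to the mean of 20 proximal tubule markers. The same marker difference, -0.66 in log2 CPM, is taken from every gene, which sets every diamond to the right of its circle. Relative to the markers Ass1, Asl and Gatm lie within 0.21 of 0.

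Per gene length, the order of the 10 genes by level differed between the groups only in its lower part. In Cdo1KKO/Sed, Ass1 averaged 1863 ± 73.8 TPM, Gatm 739 ± 2.53 TPM, Odc1 593 ± 23.5 TPM, Sat1 589.6 ± 24.0 TPM, Azin1 74.4 ± 1.20 TPM and Asl 71.3 ± 1.26 TPM. They were followed there by Arg2 at 57.4 ± 5.35 TPM, Amd1 at 46.1 ± 3.12 TPM, Srm at 24.4 ± 1.99 TPM and Smox at 11.2 ± 1.23 TPM. In WT/Sed, Ass1 averaged 2133 ± 7.81 TPM, Gatm 858 ± 21.9 TPM, Odc1 558 ± 174 TPM, Sat1 322 ± 9.84 TPM, Asl 98.7 ± 2.18 TPM and Azin1 50.4 ± 1.06 TPM. They were followed there by Amd1 at 38.7 ± 4.84 TPM, Srm at 14.3 ± 1.04 TPM, Arg2 at 10.4 ± 5.34 TPM and Smox at 2.59 ± 0.317 TPM. Ass1 held position 29 among all genes by mean TPM in Cdo1KKO/Sed and position 26 in WT/Sed, Sat1 positions 137 and 279 in that order of groups, and Arg2 positions 1895 and 6767. Odc1 and Sat1 were neighbours in Cdo1KKO/Sed and did not differ there beyond their spread. In WT/Sed the neighbours Srm and Arg2 did not differ beyond their spread.

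Ratios within a library do not depend on how libraries are scaled, and they are given as values. Odc1 over Sat1, the first enzyme of polyamine synthesis against the acetyltransferase of breakdown, was 1.00, 1.09 and 0.934 in Cdo1KKO/Sed, against 1.67, 2.37 and 1.20 in WT/Sed. The groups did not overlap, although Odc1 alone did, and the closest libraries were Cdo1KKO/Sed replicate 2 and WT/Sed replicate 3. Odc1 over Azin1 did overlap, at 8.08, 8.36 and 7.49 in Cdo1KKO/Sed, against 10.4, 15.1 and 7.86 in WT/Sed. Ass1 over Arg2, synthesis of arginine against its cleavage, averaged 32.7 ± 4.24 in Cdo1KKO/Sed and 260.2 ± 163.5 in WT/Sed, without overlap. The second step of creatine synthesis, Gamt, fell more than Gatm, so that Gatm over Gamt averaged 61.6 ± 2.96 in Cdo1KKO/Sed and 42.9 ± 3.84 in WT/Sed. The largest of these shifts among polyamine enzymes was in Srm over Sms, at 1.41, 1.07 and 1.07 in Cdo1KKO/Sed, against 0.520, 0.556 and 0.477 in WT/Sed.

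**Figure D3:**
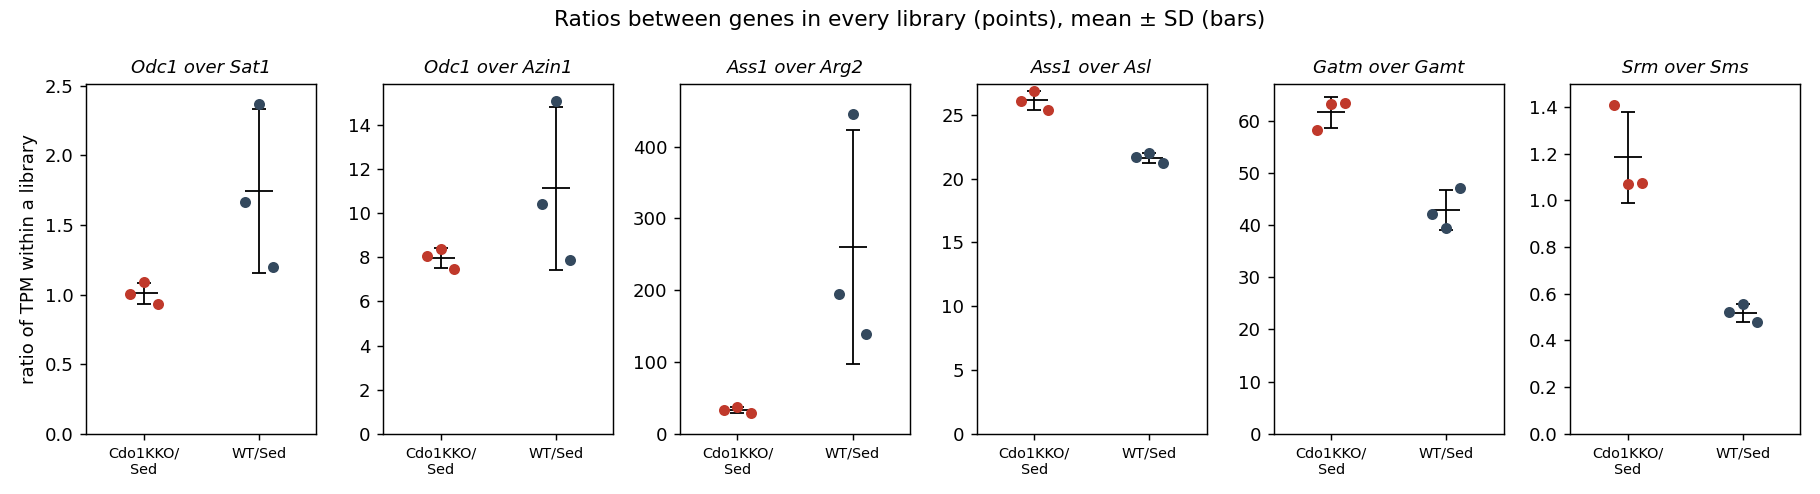
Ratio of TPM values of the named genes within each library on the vertical axis, from 0, for Cdo1KKO/Sed (left in each panel) and WT/Sed (right), with mean and SD as bars. Odc1 over Azin1 is the ratio whose groups overlap, and Ass1 over Arg2 lies between 28.3 and 36.8 in Cdo1KKO/Sed and between 139 and 446 in WT/Sed.

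Set against proximal tubule transcripts, Ass1 and Gatm were slightly higher in Cdo1KKO/Sed and Asl slightly lower. The other 7 genes were higher there by more. These relative values were not tested. The same marker difference, -0.66, is taken from every gene, so a gene without change comes out higher. Amd1, with a log2 fold change of 0.0008, is such a gene. The mean log2 CPM of the 20 proximal tubule markers was 8.66 in Cdo1KKO/Sed and 9.32 in WT/Sed, a difference of -0.66. Relative to that mean, in log2 units, Ass1 differed by 0.21, Gatm by 0.19 and Asl by -0.06 between Cdo1KKO/Sed and WT/Sed. Asl thus fell about as much as the marker mean, and Ass1 and Gatm fell less than that mean. Single markers had log2 fold changes from -0.93 to -0.22 for S1 and from -1.25 to -0.05 for S2 and S3. The fold changes of Ass1, Asl and Gatm lay inside both ranges. Relative to the mean of the 20 markers the Asl groups did not overlap, and relative to the S2 and S3 markers alone they did. For Ass1 and for Gatm the groups did not overlap relative to the 20 markers or to either segment's markers alone. On the same scale the differences were 0.54 for Odc1, whose groups overlapped when the S1 markers alone were used, 0.66 for Amd1, 0.97 for Azin1, 1.17 for Srm, 1.28 for Sat1, 2.51 for Smox and 3.02 for Arg2. The summed markers were 6878 to 7465 CPM for S1 in Cdo1KKO/Sed and 11108 to 11487 CPM in WT/Sed. For S2 and S3 they were 6670.2 to 7437 CPM in Cdo1KKO/Sed and 12035 to 12522 CPM in WT/Sed. The part of tubule cell content in the falls of Ass1, Asl and Gatm was not tested.

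Markers of other cells moved with these genes as well. The 6 injured tubule markers all rose and summed to 1816 to 2056 CPM in Cdo1KKO/Sed, against 22.6 to 39.0 CPM in WT/Sed. Of 7 macrophage markers 5 rose (Itgam, Cd68, Adgre1, Lyz2 and C1qb) and Csf1r fell, with sums of 109.7 to 119 CPM in Cdo1KKO/Sed and 56.4 to 86.9 CPM in WT/Sed, and 4 of 5 neutrophil markers rose (S100a8, S100a9, Csf3r and Retnlg), with sums of 14.1 to 17.2 CPM in Cdo1KKO/Sed and 1.57 to 2.98 CPM in WT/Sed. Arg2, Sat1 and Smox are known in macrophages as well as in epithelium, and the part of these cells in their rises was not tested. All 4 red blood cell markers rose, with sums of 404 to 427 CPM in Cdo1KKO/Sed and 26.3 to 53.1 CPM in WT/Sed. Of 5 fibroblast and pericyte markers Dcn, Pdgfra, Col1a1 and Pdgfrb rose, with sums of 62.8 to 70.4 CPM in Cdo1KKO/Sed and 26.4 to 46.5 CPM in WT/Sed. Of 5 markers of collecting duct principal cells Aqp2, Aqp3 and Aqp4 fell, with sums of 222 to 225 CPM in Cdo1KKO/Sed and 472 to 499 CPM in WT/Sed. Of 5 markers of the thick ascending limb, Egf, Umod, Kcnj1 and Slc12a1 rose and Cldn16 fell.

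Odc1 and Arg2 were uneven in WT/Sed in opposite orders, and so were many cell type markers. WT/Sed replicates 1, 2 and 3 had 799, 1129 and 589.9 CPM of Odc1 and 6.86, 3.04 and 9.56 CPM of Arg2. Of the 17 marker lists, summed, 10 had the order of Odc1 in these libraries, 4 had that of Arg2 and 3 had neither. In the order of Odc1, the podocyte sum was 285, 407 and 204 CPM, the endothelial sum 114, 189 and 49.0 CPM, the macrophage sum 71.3, 86.9 and 56.4 CPM, the fibroblast and pericyte sum 39.3, 46.5 and 26.4 CPM and the red blood cell sum 43.0, 53.1 and 26.3 CPM. The lists of B and plasma cells, T and NK cells, distal convoluted tubule, intercalated cells and the S2 and S3 segments also had that order. Some of these varied little: the S2 and S3 sum was 12241, 12522 and 12035 CPM and the intercalated sum 186, 198 and 184 CPM. In the order of Arg2, the thick ascending limb sum was 3609.8, 3109 and 3964 CPM and the injured tubule sum 33.7, 22.6 and 39.0 CPM, with Havcr1, an injury marker of the proximal tubule, at 10.7, 3.64 and 16.4 CPM. The collecting duct principal cell list (477, 472 and 499 CPM) and the liver list (130, 124 and 139 CPM) also had that order and varied less. The S1, neutrophil and skeletal muscle lists had neither order. In Cdo1KKO/Sed the podocyte sum ran from 253 to 272 CPM, the endothelial sum from 188 to 199.7 CPM and the thick ascending limb sum from 5209 to 5409.9 CPM, all narrower than in WT/Sed. With 3 libraries few orders are possible, these are values only, and no correlation was computed. Among the 9131 genes with a mean of at least 10 CPM, the profile over the 6 libraries most like that of Odc1 belonged to BC049987, Sucnr1 and Synpo, the last a podocyte marker, with root mean square differences of 0.0647 to 0.0703 log2 units. By the same measure Ccs, Dnajc22 and Cat were most like Ass1 (0.0186 to 0.0213) and Cttn, Cnn3 and Cdh1 most like Sat1 (0.0135 to 0.0236).

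**Figure D4:**
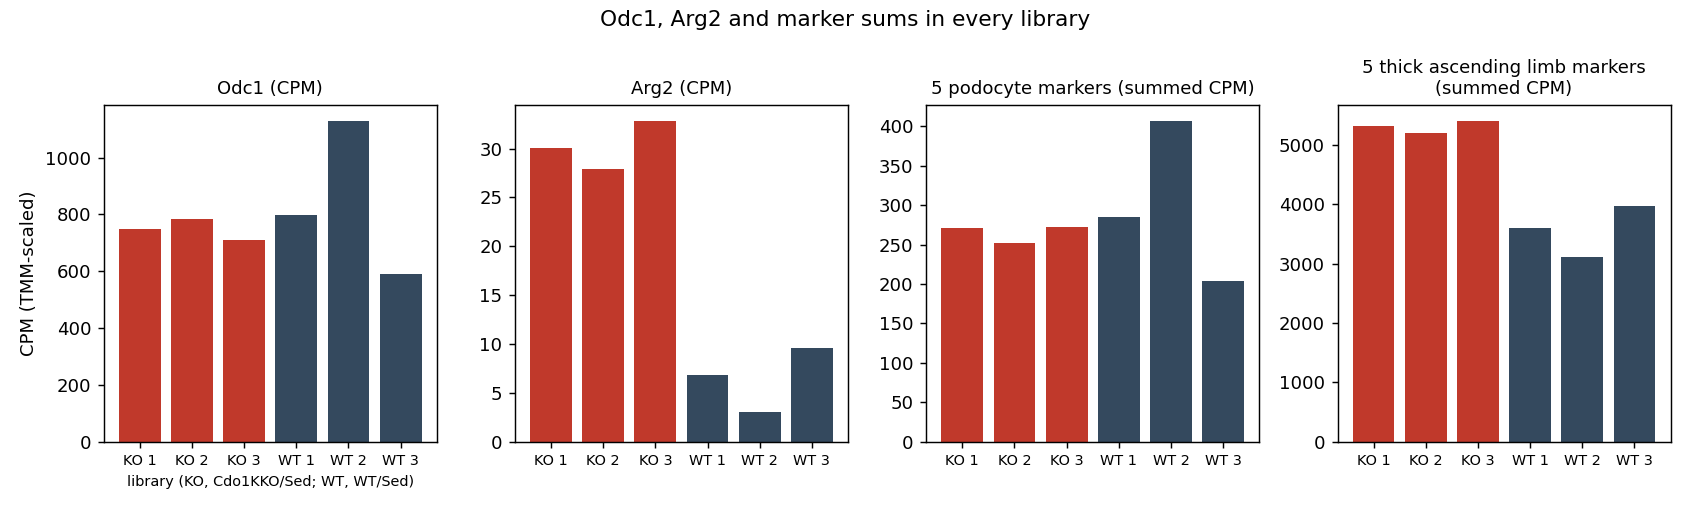
CPM (TMM-scaled) of Odc1 and Arg2, and summed CPM of 5 podocyte and 5 thick ascending limb markers, in each library, with Cdo1KKO/Sed libraries (KO) left of WT/Sed libraries (WT); bars start at 0. WT/Sed replicate 2 is highest for Odc1 and podocyte markers, at 1129 and 407 CPM, and lowest for Arg2 and thick ascending limb markers among the WT/Sed libraries.

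Odc1 of the mouse kidney is known to respond to androgen, and other transcripts known to be higher in male kidneys were therefore read beside it. Of 11 such genes, Odc1 included, 9 fell, and Odc1 and the transporter Slco1a1 did not pass the test. The list shares Cyp2e1, Acsm3, Slc7a13 and Slco1a1 with the S2 and S3 markers, so it is not separate from the fall of proximal tubule transcripts. Kap, the kidney androgen-regulated protein, stood at 22694 ± 1266 CPM in Cdo1KKO/Sed and 32402 ± 2582 CPM in WT/Sed (-0.51 ± 0.06, adjusted p = 9.34e-05). Cyp2e1 changed by -0.77 ± 0.07 and Hsd17b11 by -0.48 ± 0.05. MYC is known to act on Odc1 and Srm. Of 10 genes of the MYC network, Mxi1 (-0.51 ± 0.07) and Mlx (-0.43 ± 0.07) fell. Over all genes tested 18.5% fell, a share that also stands beside the 11 genes above. The call for Mxi1 was lost with the TPM values and that for Mlx with the TPM values on all genes. Myc itself did not pass the test, at 24.8 ± 1.90 CPM in Cdo1KKO/Sed and 18.6 ± 8.63 CPM in WT/Sed (adjusted p = 0.433), nor did Mnt (0.15 ± 0.09, adjusted p = 0.233).

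The rest of the network, in 65 further genes of 7 lists, fell more often than it rose. Of the 54 tested, 9 rose and 23 fell, with a median log2 fold change of -0.16, against 0.01 for all genes. Over all 17194 genes tested, 18.9% rose and 18.5% fell. Those shares also stand beside the counts of the single lists below. In the fit of log2(TPM + 1), 16 of the 54 rose and 12 fell, where 6784 of all 17194 genes tested rose and 1246 fell. The deposited table assigns 53 genes to arginine and proline metabolism, 8 of the 10 genes among them. Of the 39 tested others, 7 rose and 19 fell.

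In the list of the urea cycle and arginine use, 3 of 16 tested genes rose and 7 fell. The cytosolic arginase Arg1, known as the liver isoform and also made by macrophages, had 192, 287 and 192 counts in the Cdo1KKO/Sed libraries, against 0, 0 and 7 counts in the WT/Sed libraries. Its level was 5.76 ± 1.52 CPM in Cdo1KKO/Sed, so Arg2 remained the more abundant arginase there (30.3 ± 2.50 CPM; 57.4 against 6.98 TPM for Arg2 and Arg1). Its fitted log2 fold change (6.40 ± 0.60, adjusted p = 5.39e-05) rests in WT/Sed on the 7 counts of replicate 3 and ran from 2.89 to 10.7 over the other settings. Inducible nitric oxide synthase Nos2, which also uses arginine, stood at 3.15 ± 0.24 CPM in Cdo1KKO/Sed and 0.202 ± 0.134 CPM in WT/Sed (4.02 ± 0.41, with 1.41 to 4.36 over the other settings). Its WT/Sed libraries held 10, 8 and 2 counts. Aldh18a1, which opens the route from glutamate to proline and ornithine, rose by 1.73 ± 0.16. Those that fell were the proline dehydrogenases Prodh (-1.04 ± 0.06) and Prodh2 (-0.94 ± 0.07), Ddah1, which clears methylated arginines (-0.57 ± 0.05), Agxt2, Aldh4a1, Pycr3 and Oat; the calls for Pycr3 and Oat ended when libraries were scaled by size alone and in the TPM fits, where Oat changed sign, and with 1 library left out (Cdo1KKO/Sed replicate 3 for both, and Cdo1KKO/Sed replicates 1 and 2 and WT/Sed replicate 1 for Oat). Otc, the urea cycle enzyme of liver, had no count in any library, where 3 counts over the 6 libraries would be 0.0133 CPM, and Cps1 and Nags were too low to test.

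Transporters of arginine and related amino acids also moved in both directions. The brush border exchanger Slc7a9 and its partner Slc3a1, which take up arginine, ornithine and cystine from the filtrate, fell by 0.80 ± 0.06 and 0.79 ± 0.09 on the log2 scale. Slc7a7, the basolateral exchanger of the proximal tubule, fell by 0.76 ± 0.07. The general cationic amino acid importer Slc7a1 rose, from a low level, with 15.5 ± 0.71 CPM in Cdo1KKO/Sed and 6.77 ± 1.16 CPM in WT/Sed (1.19 ± 0.13, adjusted p = 2.99e-05). The heavy chain Slc3a2 rose by 0.37 ± 0.05. In all, 2 of 12 tested transporters rose and 6 fell. Slc25a13, Slc25a15 and Slc7a2 were the others that fell, each with its call lost in the TPM fits. The calls for Slc25a15 and Slc7a2 were also lost when libraries were scaled by size alone. Slc25a15 changed sign there and in the TPM fits. Leaving out Cdo1KKO/Sed replicate 1 or 3 or WT/Sed replicate 1 also ended the calls for Slc7a2 and Slc25a15, and leaving out WT/Sed replicate 3 that for Slc7a2. In the creatine list Gamt, the second enzyme of creatine synthesis, fell by 1.00 ± 0.12 and the creatine transporter Slc6a8 by 0.25 ± 0.05, with the call for Slc6a8 lost when libraries were scaled by size alone and in the TPM fits, where its sign turned. The creatine kinases Ckmt1 (0.39 ± 0.07) and Ckb (0.35 ± 0.07) rose.

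Several other polyamine genes fell, while Srm and Sat1 rose. Of 7 tested, spermine synthase Sms (-0.66 ± 0.07), the second acetyltransferase gene Sat2 (-0.70 ± 0.08) and the antizymes Oaz1 (-0.40 ± 0.07) and Oaz2 (-0.42 ± 0.08) fell, the antizymes without a call in the TPM fits. Sms had 46.1 ± 4.12 CPM in Cdo1KKO/Sed and 73.2 ± 2.22 CPM in WT/Sed, the opposite direction to Srm. The polyamine oxidase Paox, in peroxisomes, had 8.91 ± 0.948 CPM in Cdo1KKO/Sed and 7.15 ± 0.684 CPM in WT/Sed, an increase that did not pass the test (adjusted p = 0.0777), although it did under scaling by library size alone and in the TPM fits. Among genes that supply and recover methionine for this route, Ahcy (-0.70 ± 0.06), Mat2a (-0.47 ± 0.08) and Adi1 (-0.28 ± 0.05) fell, of 8 genes tested. The calls for Mat2a and Adi1 ended with the TPM values, and that for Adi1 also when libraries were scaled by size alone. Of the 4 genes of the hypusine pathway, in which spermidine modifies the translation factor eIF5A, Eif5a2 rose (0.56 ± 0.10), and the more abundant Eif5a stood at 290.1 ± 3.09 CPM in Cdo1KKO/Sed and 300.1 ± 15.05 CPM in WT/Sed and did not pass the test (adjusted p = 0.503), although it rose in the TPM fits. Of 3 tested polyamine transporters, Atp13a3, which takes up polyamines, rose (0.32 ± 0.07) and the vesicular transporter Slc18b1 fell (-0.26 ± 0.09, adjusted p = 0.0465), a call lost in 13 of 17 other settings, among them each library left out except WT/Sed replicate 3.

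**Figure D5:**
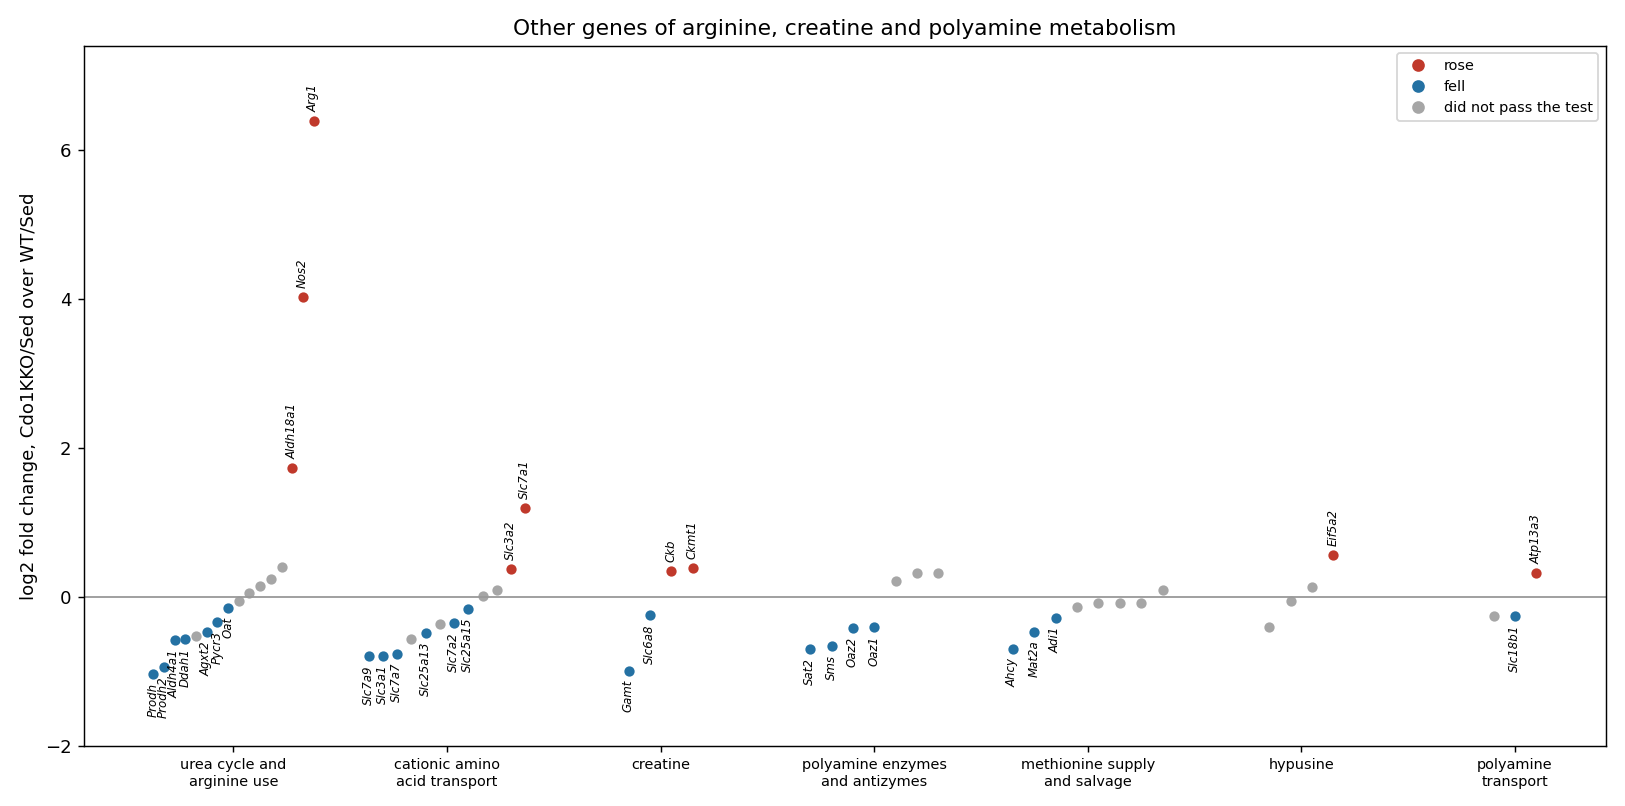
Log2 fold change, Cdo1KKO/Sed over WT/Sed, of the 54 tested pathway genes on the vertical axis, grouped by list along the horizontal axis; red genes rose, blue genes fell and grey genes did not pass the test. Arg1 and Nos2 stand furthest above 0, and Prodh furthest below.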

How the data were processed

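Kidney mRNA was captured on oligo(dT) beads before library preparation (VAHTS kit, Vazyme), per the labels' protocols. Reads were handled with fastp 0.23.4 and the builds GRCm38 and mm10 are named, per the submitters' processing notes; the aligner, the counter, the gene models and the strand setting were not given in the sources used here. Whole-number counts per gene were deposited by the authors, together with TPM values for the same genes, whose sum is equal in all 6 libraries. Gene positions came from GENCODE M21 (GRCm38), matched by gene identifier without version, and promoter sequences from RefSeq.

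Counts were analysed with edgeR 4.0.16 in R 4.3.3: filterByExpr, TMM scaling, and the quasi-likelihood F test (robust fit), the model holding genotype alone. The approximate SE is the absolute log2 fold change divided by the square root of F. Intervals take this SE with the 95% quantiles of a normal distribution, so they are narrower than 95% intervals of the test. No pair of libraries within a group agreed within sampling noise (lowest chi-square per degree of freedom 3.39). Alternatives were RLE, upper-quartile and library-size scaling, DESeq2 1.42.0, limma-voom and limma-trend (limma 3.58.1), other filters, log2(TPM + 1) and log2(TPM + 0.1), each library left out, and the replicate number as a block. Log2 CPM used a prior count of 2. Named were all 10 genes, up to 4 genes of each list with the smallest p, and genes completing a count of 5 or fewer. Agxt2, Aldh4a1, Pycr3, Oat, Myc, Paox, Eif5a, Slc7a2, Slc25a13, Slc25a15, Vti1b, Gm22748, Gm48780 and the named cell type markers were added after their values were seen. Aoc1 was also added in this way. The genes and lists were chosen with earlier results of these data known, and the set of genes that the deposited table assigns to arginine and proline metabolism, and the motifs CCAAT and GGGCGG, were added afterwards. No protein sequences were used here. The values of 1 gene that the rule names are not reported here. Figures were drawn with matplotlib 3.10.9.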

Additional observations from a re-analysis of the deposited data

How the results depend on the processing

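Of the 10 genes, 5 rose and 3 fell under all 17 alternatives, and Odc1 and Amd1 passed the test under none of them. The fold changes ran from -0.48 to -0.20 for Ass1, -0.73 to -0.46 for Asl, -0.49 to -0.21 for Gatm, 1.88 to 2.61 for Arg2, 0.45 to 0.76 for Srm, 0.30 to 0.56 for Azin1, 0.60 to 0.87 for Sat1 and 1.76 to 2.08 for Smox. Over all genes the median fold change (log2) was 0.18 with library size only and 0.19 with log2(TPM + 1), against 0.01. With library size only, 5513 genes rose and 1685 fell (76.6% rises against 50.5%); with log2(TPM + 1) 6784 rose and 1246 fell, with log2(TPM + 0.1) 6660 and 1224, and with log2(TPM + 1) on all genes 5469 and 1010. Of the pathway genes 16 rose and 12 fell with log2(TPM + 1), as with log2(TPM + 0.1), and 12 fell with log2(TPM + 1) on all genes. The sign of Odc1 turned to 0.13 in the 3 TPM fits and to 0.11 without WT/Sed replicate 2, within a range of -0.37 to 0.11 over libraries left out. That of Amd1, near 0, turned to -0.0029 with RLE scaling and -0.0027 with DESeq2, and ran from -0.0517 to 0.0940 over libraries left out, below 0 in 4 of these 6 fits. The cause was not tested. With 1 library left out, 2306 to 3767 of all genes rose and 2331 to 3553 fell, and 18 to 23 pathway genes fell. The replicate numbers do not pair the samples: deviations of same-numbered libraries correlated at -0.0022 to 0.0125, and not every library correlated best with its own number. With the replicate block 3117 genes rose and 3029 fell, and 5 and 3 of the 10 genes. Depth limits Arg1, with 7 counts in WT/Sed.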
